A study of Homo sapiens with 6 samples.

Results

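The core RAS, RAF, MEK and ERK cascade was examined through 7 genes selected by name, HRAS and NRAS, ARAF and BRAF, MAP2K1 and MAP2K2, and MAPK3. All 7 had a row among the 39327 rows that carry a gene identifier, and all 7 were among the 12821 genes with enough counts to be tested. CAL62 is an established human anaplastic thyroid carcinoma (ATC) cell line, labelled wild type and grown in RPMI medium with serum. Cells received 50 nM erianin, a bibenzyl from Dendrobium orchids, or the vehicle DMSO as the control, and total RNA was sequenced 48 h later from 3 libraries in each group. All libraries come from 1 cell line, 1 dose and 1 time point. The labels do not state that the libraries came from separate cultures, so the p-values measure the spread between these libraries, which may be technical. Other genes of the RAS, RAF and ERK tiers were not analysed here.

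RAS proteins are small GTPases that switch on when exchange factors load them with GTP, and GTP-bound RAS recruits RAF kinases to the membrane. RAF phosphorylates the kinases MEK1 and MEK2, which in turn phosphorylate ERK1 and ERK2, and ERK then acts on kinases and transcription factors such as the ETS family. Activating mutations of this cascade are a known feature of thyroid carcinoma. The study asked how erianin acts on the MAPK/ERK and PI3K/AKT pathways. Transcript counts give the amount of mRNA of each kinase and carry no information on its phosphorylation.

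After erianin, transcripts of MAP2K2 (MEK2) and MAPK3 (ERK1) were lower, whereas no difference was detected by the adjusted test for the other 5 genes. MAP2K2 fell by 26.2% and MAPK3 fell by 25.0% in the mean of normalized counts, with adjusted p-values of 0.0223 and 0.0220 from the quasi-likelihood test of edgeR. Neither change reached the log2 fold change of 0.5 that a call also required, so 0 of the 7 genes were called, where 8.73% of all tested genes were called. DESeq2 also called 0 of the 7, and 3 of the 7 had an unadjusted p below 0.05, where 30.9% of all tested genes did. At an adjusted p below 0.05 with no fold threshold, which 14.9% of all tested genes reached, 2 of the 7 genes passed. Both were lower, where 7.69% of all tested genes were lower, and 0 were higher, where 7.22% of all tested genes were higher. The median log2 fold change was 0.01 over the 7 genes and 0.00 over all genes tested.

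One control library bears on each of these values. DMSO replicate 3 stood apart from the other DMSO replicates, with a chi-square per gene of 90.6 and 104 against them, compared with 4.35 between DMSO replicates 1 and 2 and 3.80 to 4.80 between erianin libraries. Relative to the mean of DMSO replicates 1 and 2, DMSO replicate 3 differed by between -0.85 (HRAS) and 0.71 (BRAF) on the log2 scale, and the biological coefficient of variation was 0.139 with this library and 0.0421 without it. The slope of log2 CPM (counts scaled to the TMM-normalized library size) on transcript GC content, per 10 percentage points, was 0.128 and 0.152 in DMSO replicates 1 and 2, -0.170 in DMSO replicate 3 and between -0.043 and -0.028 in the erianin libraries. Fold changes are therefore also given without this library, and with an offset that removes each library's trend on GC content. The part of these library differences in the results was not tested beyond those values.

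For sequence context, part of the promoter is shown for the 2 genes that fell. The stretches run from 250 to 101 bases before the RefSeq transcription start (GRCh38.p14), 5′ to 3′ on the strand of the gene, and capitals mark GC boxes (GGGCGG or its complement CCGCCC), the sites bound by SP family factors. They lie at chr19:4124223-4124372 for MAP2K2 and chr16:30123321-30123470 for MAPK3, both on the minus strand.
MAP2K2: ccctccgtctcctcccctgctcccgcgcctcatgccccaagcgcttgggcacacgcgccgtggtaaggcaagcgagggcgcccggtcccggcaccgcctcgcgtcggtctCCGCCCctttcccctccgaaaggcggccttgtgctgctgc
MAPK3: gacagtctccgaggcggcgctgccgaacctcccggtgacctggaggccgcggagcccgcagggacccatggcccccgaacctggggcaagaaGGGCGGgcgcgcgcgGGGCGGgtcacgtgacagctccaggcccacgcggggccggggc
The stretches hold 1 and 2 GC boxes. Over the whole window of 250 bases before the start, GC boxes numbered 2 for MAP2K2, 6 for MAPK3, 3 for MAP2K1, 3 for HRAS and 2 for NRAS, whereas ARAF and BRAF had 0. At least 1 GC box was thus found for 5 of the 7 genes, compared with 68.0% of the windows of the 10128 tested genes with a RefSeq entry. The ETS core (CCGGAA on either strand) was found for HRAS and ARAF and in 24.5% of those windows, and the CCAAT box (CCAAT on either strand) for 4 of the 7 genes and in 34.5% of them. The E-box CACGTG occurred for NRAS and MAPK3 and in 9.02% of windows. No window of the 7 genes held the letters searched for NRF1, AP-1 (TGANTCA), CRE (TGACGTCA) or the TATA box (TATAAA). GC content of the windows ranged from 54.4% (NRAS) to 80.4% (MAPK3), and the median over tested genes was 65.2%. In GENCODE all 7 genes begin further upstream than in RefSeq, by 7 bases (MAP2K2) to 1711 bases (HRAS), and the windows of HRAS, BRAF (660 bases) and MAPK3 (286 bases) lie wholly inside the GENCODE gene.

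HRAS and NRAS encode GTPases at the top of the cascade. HRAS (ENSG00000174775, GRCh38 chr11:532242-537287, minus strand) had 76.5, 77.8 and 42.7 CPM in DMSO replicates 1 to 3 and 77.6, 73.8 and 79.2 CPM in the erianin replicates. The erianin libraries lay in the range of DMSO replicates 1 and 2 or close to it, and DMSO replicate 3 was far below every other library. The log2 fold change was 0.23 (SE 0.21, 95% interval -0.26 to 0.72, edgeR adjusted p = 0.514). It was -0.0094 (SE 0.052, adjusted p = 0.892) without DMSO replicate 3, so without a GC offset the positive HRAS estimate rested on that library. With the GC offset HRAS was 0.27 (adjusted p = 0.122), and with the offset and without DMSO replicate 3 it was 0.13 (adjusted p = 0.0336).

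NRAS (ENSG00000213281, chr1:114704469-114716894, minus strand) had 51.4, 46.9 and 59.5 CPM in DMSO and 55.1, 55.3 and 56.2 CPM with erianin. All 3 erianin values fell between the DMSO values. The log2 fold change was 0.08 (SE 0.10, 95% interval -0.16 to 0.32, adjusted p = 0.652) over the 6 libraries. It was 0.18 without DMSO replicate 3 (adjusted p = 0.0127) but -0.10 with the GC offset (adjusted p = 0.359), so neither a direction nor a call for NRAS held across these settings. With both, it was -0.13 (adjusted p = 0.0575). Its longest transcript has a GC content of 38.4%, the lowest of the 7 genes, against 65.8% for HRAS.

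The RAF kinases ARAF and BRAF link RAS to MEK. ARAF (ENSG00000078061, chrX:47561100-47571920, plus strand) had 59.9, 56.0 and 61.8 CPM in DMSO and 47.0, 52.8 and 53.8 CPM with erianin. Every erianin library was below every DMSO library. The log2 fold change was -0.21 (SE 0.09, 95% interval -0.42 to -0.0055) and did not pass the adjusted test (edgeR adjusted p = 0.152). Leaving out DMSO replicate 3 gave -0.18 for ARAF (adjusted p = 0.0130), and with the GC offset it was -0.23 (adjusted p = 0.200). With both, ARAF was -0.11 (adjusted p = 0.122). On deposited TPM the ARAF groups overlapped, at 45.8, 43.1 and 43.3 TPM in DMSO and 40.1, 44.4 and 46.5 TPM with erianin, and limma on log2(TPM + 1) gave -0.014 (adjusted p = 0.917), or -0.19 relative to the median of all genes.

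BRAF (ENSG00000157764, chr7:140719327-140924928, minus strand), the RAF gene most often mutated in thyroid cancer, had 27.8, 27.5 and 45.3 CPM in DMSO and 33.6, 34.0 and 33.8 CPM with erianin. The erianin libraries were nearly equal to each other and lay between DMSO replicates 1 and 2, which were lower, and DMSO replicate 3, which was higher. The log2 fold change was 0.01 (SE 0.19, 95% interval -0.44 to 0.46, adjusted p = 0.979), so that a change of this gene was not detectable in the 6 libraries. When DMSO replicate 3 was left out it was 0.29 (adjusted p = 0.000711), and with the GC offset it was -0.13 (adjusted p = 0.474). With both, it was 0.01 (adjusted p = 0.891). The exons of BRAF share 1239 bases, 5.29% of their length, with NDUFB2 on the opposite strand, a respiratory chain subunit gene that held 5942 counts over the 6 libraries against 6496 for BRAF. The sources do not state if counting was strand-specific, and reads from the shared bases cannot be assigned with certainty.

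**Figure D1:**
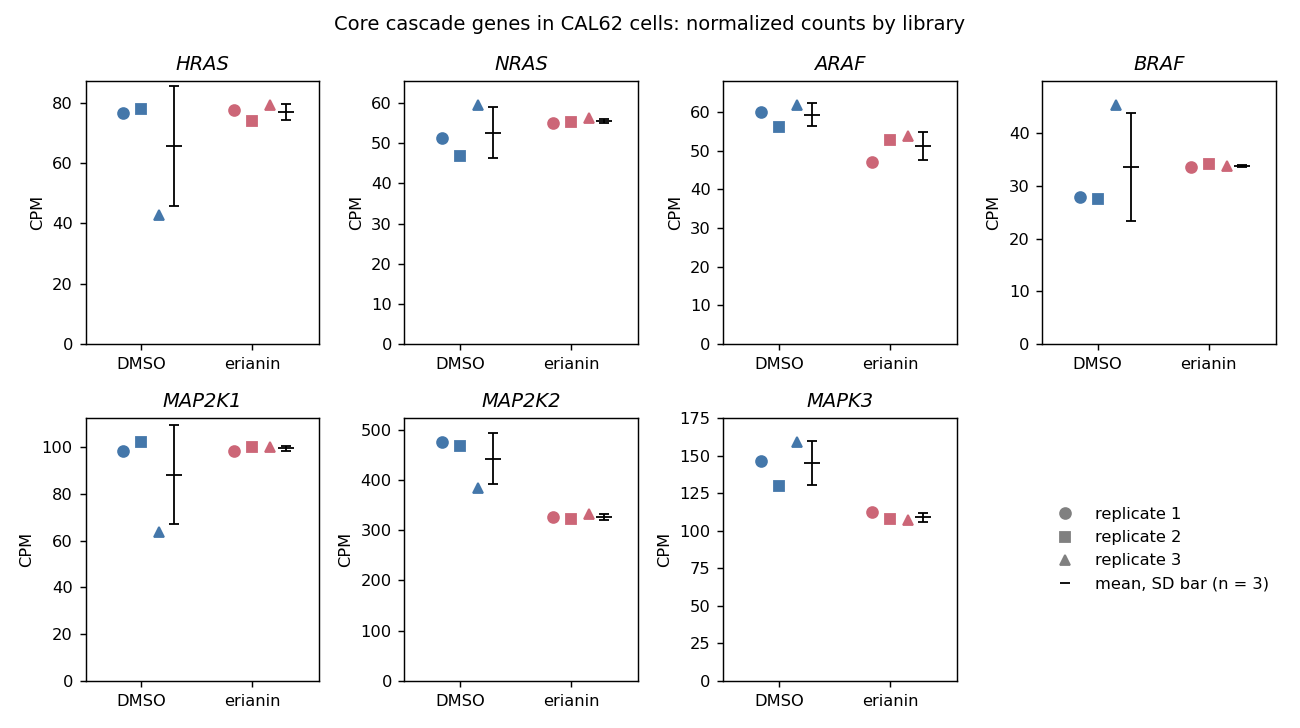
TMM-normalized CPM (linear axis from 0) of the 7 cascade genes in each of the 6 libraries, DMSO in blue and erianin in red, with marker shape giving the replicate number and black bars the mean and SD of 3 libraries. DMSO replicate 3 (blue triangle) is lowest for HRAS, MAP2K1 and MAP2K2 among the DMSO libraries and highest for NRAS, ARAF, BRAF and MAPK3, and the groups do not overlap for ARAF, MAP2K2 and MAPK3.

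MAP2K1 and MAP2K2 encode MEK1 and MEK2, the dual-specificity kinases that phosphorylate ERK. MAP2K1 (ENSG00000169032, chr15:66386817-66492312, plus strand) had 98.5, 102 and 63.8 CPM in DMSO and 98.1, 100.0 and 100.2 CPM with erianin. DMSO replicates 1 and 2 and all erianin libraries lay within a few CPM of each other, and DMSO replicate 3 was far below them. The log2 fold change was 0.17 (SE 0.17, 95% interval -0.22 to 0.56, adjusted p = 0.533), and it was -0.02 without DMSO replicate 3 (adjusted p = 0.754). With the GC offset MAP2K1 was 0.14 (adjusted p = 0.543), and with the offset and without that library it was -0.055 (adjusted p = 0.351). MAP2K1 exons share 216 bases with SNAPC5 on the opposite strand, which held 4088 counts over the 6 libraries against 18059 for MAP2K1, and its processed pseudogene MAP2K1P1 held 8 counts.

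MAP2K2 (ENSG00000126934, chr19:4090321-4124129, minus strand) had 476, 466 and 384 CPM in DMSO and 325, 321 and 332 CPM with erianin. All erianin libraries were below all DMSO libraries, and DMSO replicate 3 was the DMSO library nearest to them. The mean was 442 ± 50.8 CPM in DMSO and 326 ± 5.20 CPM with erianin (SD, n = 3), and the log2 fold change was -0.44 (SE 0.09, 95% interval -0.66 to -0.22, edgeR adjusted p = 0.0223). Without DMSO replicate 3 it was -0.53 (adjusted p = 3.3e-13), past both thresholds of a call, and with the GC offset it was -0.44 (adjusted p = 0.00292). With both, it was -0.45 (adjusted p = 1.1e-11). The direction was the same when any other library was left out, at -0.45 to -0.39, but the adjusted p then lay between 0.0720 and 0.107. In RNA from a whole culture, fewer cells that express a gene and less RNA of it per cell cannot be told apart.

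MAPK3 encodes ERK1, a kinase of the last tier. MAPK3 (ENSG00000102882, chr16:30114105-30123506, minus strand) had 146, 130 and 159 CPM in DMSO and 112, 108 and 107 CPM with erianin. Each erianin library was below each DMSO library, and here DMSO replicate 3 was the library farthest from them. The mean was 145 ± 14.7 CPM in DMSO and 109 ± 2.91 CPM with erianin (SD, n = 3), with a log2 fold change of -0.41 (SE 0.09, 95% interval -0.62 to -0.21, edgeR adjusted p = 0.0220). It was -0.35 without DMSO replicate 3 (adjusted p = 3.7e-07), and -0.44 with the GC offset, which did not pass the test (adjusted p = 0.0705). With both, the log2 fold change of MAPK3 was -0.25 (adjusted p = 6.1e-05). Leaving out each library in turn gave log2 fold changes from -0.49 to -0.35 and an adjusted p of up to 0.113, below 0.05 in 2 of the 6 cases.

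Groups did not overlap for 3 of the 7 genes, where this held for 38.7% of all tested genes. These 3 (ARAF, MAP2K2 and MAPK3) had every erianin library below every DMSO library, where 19.3% of all tested genes did, and 0 had every erianin library above, where 19.5% of all tested genes did. With DMSO replicate 3 left out, 2 of the 7 genes passed the adjusted p as higher (NRAS and BRAF), where 27.5% of tested genes did, and 3 as lower (ARAF, MAP2K2 and MAPK3), where 27.7% of tested genes did. In that fit 1 of the 7, MAP2K2, passed both thresholds, where 17.5% of tested genes did, and the median log2 fold change was -0.02 over the 7 genes and 0.02 over all genes. PAX8, the thyroid lineage factor, moved with the groups as well, from 676 ± 55.2 CPM in DMSO to 428 ± 7.88 CPM with erianin (SD, n = 3, edgeR adjusted p = 0.00403), and its part in the cascade results was not tested. FOXE1, the other thyroid marker that could be tested, was at 1.57 ± 0.633 and 1.61 ± 0.105 CPM (log2 fold change 0.03, adjusted p = 0.963). Of the 6 tested epithelial and mesenchymal markers, 1 passed the adjusted p. VIM, the gene of vimentin, fell from 1289 ± 194 to 932 ± 21.2 CPM (-0.47, adjusted p = 0.0300), whereas KRT8, KRT18, KRT19, EPCAM and CDH2 did not pass; the part of VIM in the results was not tested either. Among further thyroid markers, TSHR and NKX2-1 had 0 counts in every library, and TG and SLC5A5 were too low to be tested. The 7 markers of blood cells, endothelium and fibroblasts summed to 32.3 to 36.5 CPM in DMSO and 27.5 to 30.3 CPM with erianin, mostly from COL1A1, with DCN at 0 counts in every library.

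**Figure D2:**
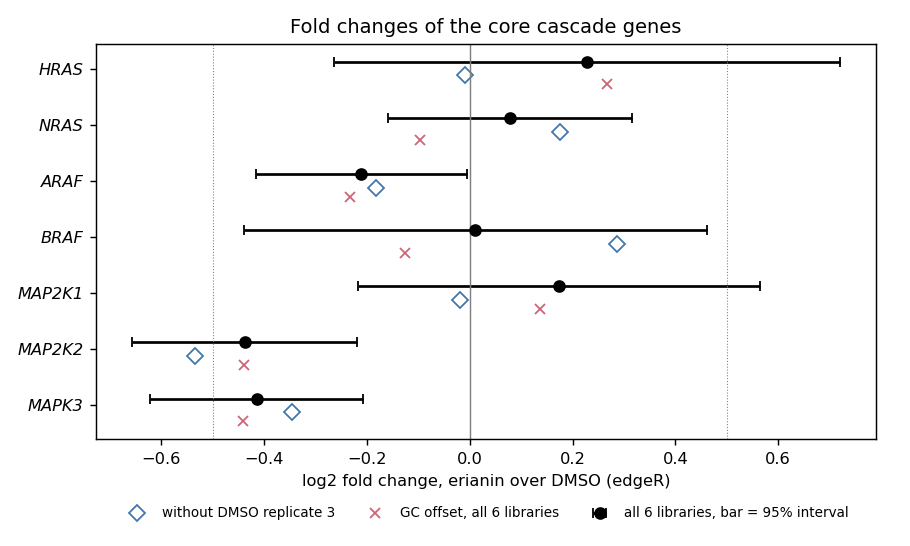
Log2 fold change of erianin over DMSO from edgeR for each cascade gene (horizontal axis), with all 6 libraries as filled circles and 95% intervals, without DMSO replicate 3 as open diamonds, and with the GC offset as crosses; dotted lines mark the fold threshold of 0.5. The intervals of ARAF, MAP2K2 and MAPK3 lie below 0, and the estimates of HRAS, NRAS, BRAF and MAP2K1 move across 0 between settings.

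Where a tier was represented by 2 genes, their balance was compared within each library by the log2 ratio of deposited TPM. The scaling of the library cancels in this ratio, but a trend on GC content does not. The size of a ratio also depends on the gene lengths behind the TPM, which cancel only in the difference between groups. GC content of the longest transcript was 50.4% for MAP2K1 and 60.9% for MAP2K2, 58.9% for ARAF and 40.0% for BRAF, and 65.8% for HRAS and 38.4% for NRAS. No GC offset was applied to the ratios, and the part of the GC trend in them was not tested. The MAP2K1 to MAP2K2 ratio was 0.426, 0.452 and 0.342 in DMSO and 0.621, 0.641 and 0.622 with erianin. All erianin ratios were above all DMSO ratios, and the mean log2 ratio differed by 0.64 (-1.31 ± 0.21 in DMSO, -0.67 ± 0.03 with erianin, SD, n = 3). The exact two-sided permutation p was 0.1, the smallest that 3 against 3 libraries allow, and 0.3 after adjustment over the 3 pairs compared, so the difference could not pass a threshold of 0.05 in this design. Without DMSO replicate 3 the difference was 0.52.

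The ARAF to BRAF ratio was 15.4, 14.6 and 9.75 in DMSO and 10.0, 11.1 and 11.4 with erianin. DMSO replicate 3 lay below the erianin libraries and the other DMSO replicates above them, and the log2 ratio differed by -0.27 (exact permutation p = 0.4, adjusted p = 0.6), or by -0.47 without that library. The HRAS to NRAS ratio was 0.716, 0.798 and 0.345 in DMSO and 0.678, 0.642 and 0.678 with erianin, a log2 difference of 0.19 (exact permutation p = 1, adjusted p = 1). Without DMSO replicate 3 the HRAS to NRAS difference was -0.18, of the opposite sign. Which of these genes is higher depended on the length used. Per kilobase of the longest GENCODE transcript, HRAS was at 53.2 CPM and NRAS at 11.8 CPM in DMSO, the reverse of the TPM order.

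**Figure D3:**
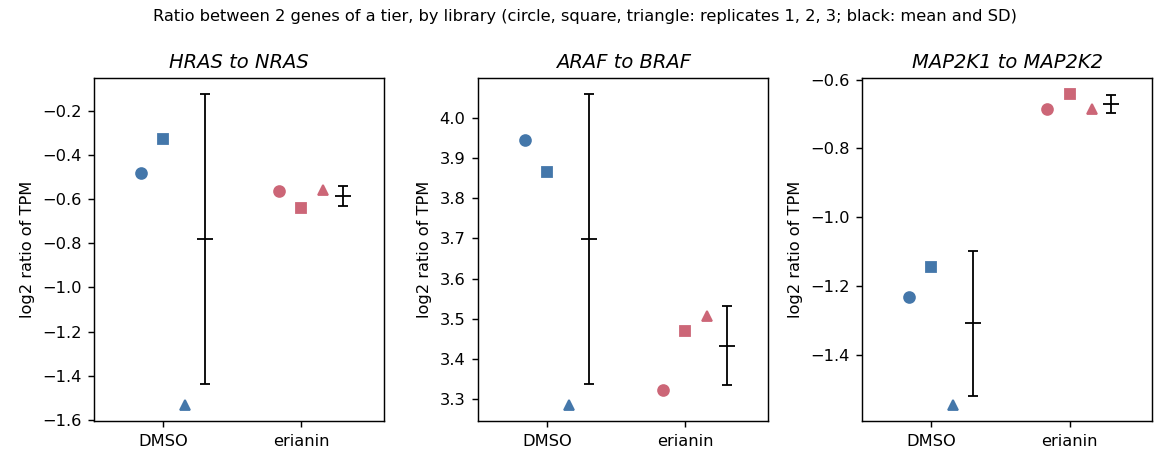
Log2 ratio of TPM between the 2 genes of a tier in each library (vertical axis, a separate range in each panel), with blue for DMSO, red for erianin and black bars for the mean and SD of 3 libraries. The MAP2K1 to MAP2K2 ratio separates the groups, with a difference of 0.64 in the mean log2 ratio, while the ARAF to BRAF and HRAS to NRAS ratios overlap.

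Levels were compared between genes per unit of transcript length. In DMSO the deposited TPM were 205 ± 33.1 for MAP2K2, 84.7 ± 23.9 for MAP2K1, 69.3 ± 5.04 for NRAS, 49.5 ± 3.12 for MAPK3, 44.0 ± 1.49 for ARAF, 42.2 ± 14.4 for HRAS and 3.46 ± 0.854 for BRAF (SD, n = 3). MAP2K1 and NRAS overlapped between libraries, as did HRAS with both ARAF and MAPK3. With erianin MAP2K2 again came first, at 173 ± 5.21 TPM, and BRAF last, at 4.03 ± 0.0499 TPM, and ARAF and MAPK3 overlapped, at 43.7 ± 3.29 and 42.7 ± 1.18 TPM. The order in between depended on the gene length used. The deposited TPM imply that NRAS is 0.481 times as long as HRAS, whereas its longest GENCODE transcript is 3.61 times as long, and with counts per kilobase of the longest GENCODE transcript NRAS moved from rank 3 to rank 6 and HRAS from rank 6 to rank 3 in DMSO. MAP2K2 ranked 1 and BRAF ranked 7 with either length.

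For each cascade gene, the gene with the most similar profile over the 6 libraries was found by the root mean square difference of centred log2 CPM. The nearest genes were STXBP2 for HRAS (0.0239), FBXO28 for NRAS (0.0202), SLC6A15 for ARAF (0.0227), IPO7 for BRAF (0.0229), ILKAP for MAP2K1 (0.0228), ZNF496 for MAP2K2 (0.0262) and MRPL37 for MAPK3 (0.0294). None of these is a component of the cascade, and the profiles share the same 6 libraries and the distance of DMSO replicate 3. The spread of BRAF between erianin libraries, an SD of 0.211 CPM, was below the 0.987 CPM that counting alone would give, and that of MAPK3, 2.91 CPM, was above its 1.77 CPM.

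Around the cascade, 9 lists of 118 genes covered RAS regulation, scaffolds, ERK-dependent kinases and outputs, the parallel MAP kinase cascades and the PI3K and AKT kinases, and 114 of these genes were tested. Of the 114, 6 were called higher, where 5.37% of tested genes were, and 3 were called lower, where 3.36% of tested genes were, and 93 did not pass the adjusted p. At the adjusted p alone 11 were higher and 10 lower, where 7.22% and 7.69% of tested genes were. Their median log2 fold change was 0.0025. Over the 6 libraries most of the surrounding genes therefore gave no call, and those that did were spread over 7 of the lists. This depended on DMSO replicate 3. With it left out, 42 of the 114 were higher and 31 lower at the adjusted p, where 27.5% and 27.7% of tested genes were. In that fit 12 were called higher and 4 lower, where 17.5% of tested genes were called in either direction.

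Among 10 genes that activate RAS, 2 were higher and 1 lower at the adjusted p (7.22% and 7.69% of all tested genes). SHC1, an adaptor that couples receptors to RAS activation, fell from 491 ± 33.5 to 374 ± 3.59 CPM (log2 fold change -0.39, edgeR adjusted p = 0.0150). PTPN11, which encodes the phosphatase SHP2, rose from 170 ± 12.1 to 218 ± 6.59 CPM (0.36, adjusted p = 0.0213). The exchange factor RASGRP3 was called higher from few counts, at 0.151 ± 0.136 CPM in DMSO and 1.02 ± 0.309 CPM with erianin (adjusted p = 0.0182). Of 10 genes that inactivate RAS, 1 was called lower, where 3.36% of all tested genes were. It was the GTPase-activating protein RASA3, from 124 ± 6.90 to 85.6 ± 3.30 CPM (-0.53, edgeR adjusted p = 0.00639). NF1 was at 114 ± 35.0 and 108 ± 3.18 CPM (adjusted p = 0.800). None of the 8 genes for lipid processing of RAS passed the adjusted p, where 14.9% of all tested genes did. An unadjusted p below 0.05 was found for 1 of the 8, and for 30.9% of all tested genes. ICMT, the methyltransferase of prenylated RAS, had a log2 fold change of -0.08. The depalmitoylating enzyme LYPLA1 stood at 115 ± 14.2 and 115 ± 12.3 CPM.

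Of 8 relatives of RAS, 1 was called higher, where 5.37% of all tested genes were. It was RIT1, from 12.5 ± 0.246 to 20.6 ± 1.31 CPM (0.73, edgeR adjusted p = 0.0056). RRAS (0.04) and RALB (0.02) did not pass the test. Of 21 scaffolds and RAF regulators, 1 passed the adjusted p, as higher (7.22% of all tested genes), and 0 were called (8.73%). It was PAQR3, a Golgi protein known to tether RAF, with 20.6 ± 1.15 CPM in DMSO and 28.3 ± 2.68 CPM with erianin (0.46, adjusted p = 0.0288), named here after its value was seen. HSP90AB1, a chaperone of RAF, had a log2 fold change of 0.11 (adjusted p = 0.307) and the 14-3-3 gene YWHAZ one of -0.02 (adjusted p = 0.936). With DMSO replicate 3 left out, 12 of these 21 genes passed the adjusted p as higher and 2 as lower, where 27.5% and 27.7% of tested genes did. In that fit 2 of the 21 were called higher and 0 lower, where 17.5% of tested genes were called in either direction.

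Downstream of ERK, 13 dependent kinases and ETS factors included 3 higher and 1 lower at the adjusted p, where 7.22% and 7.69% of all tested genes were. The RSK family kinase RPS6KA2 fell from 3.03 ± 0.461 to 1.54 ± 0.135 CPM (-0.97, edgeR adjusted p = 0.0168), and ETS1 rose from 370.2 ± 37.2 to 475 ± 4.24 CPM (0.36, adjusted p = 0.0304). PEA15, which holds ERK in the cytoplasm, had a log2 fold change of -0.01. Of 13 genes known as transcriptional outputs of ERK, 3 were called higher (5.37% of all tested genes) and 2 were lower at the adjusted p alone (7.69%). The ERK phosphatase genes DUSP5 and DUSP4 rose, DUSP5 from 258 ± 58.3 to 443 ± 9.68 CPM (0.78, adjusted p = 0.0186) and DUSP4 from 2.42 ± 0.717 to 4.27 ± 0.344 CPM (0.83, adjusted p = 0.0426). IER3, an immediate early gene, rose from 205 ± 22.9 to 296 ± 7.01 CPM (0.53, adjusted p = 0.0114). The 2 lower genes, named after their values were seen, were CCND1, the gene of cyclin D1 (-0.45, adjusted p = 0.0090), and the ETS factor ETV4 (-0.37, adjusted p = 0.0438). The immediate early genes EGR1 (-0.30, adjusted p = 0.158) and FOSL1 (-0.21, adjusted p = 0.303) did not pass the test.

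In the parallel MAP kinase cascades, 1 of 19 genes was called, as lower, where 3.36% of all tested genes were. MAP2K5, the kinase of the ERK5 branch, fell from 36.1 ± 2.17 to 20.8 ± 0.466 CPM (-0.79, edgeR adjusted p = 0.0034), a larger estimate than that of either MEK gene of the core cascade, although that difference was not tested. MAP2K3 of the p38 branch (0.12, adjusted p = 0.567) and MAP3K11 of the JNK branch (-0.15, adjusted p = 0.521) did not pass. Among 12 PI3K and AKT kinase genes, 1 was called higher (5.37% of all tested genes) and 4 were lower at the adjusted p alone (7.69%). PIK3R3, a regulatory subunit of PI3K, rose from 2.39 ± 0.295 to 4.02 ± 0.554 CPM (0.74, adjusted p = 0.0311). AKT2 fell from 219 ± 29.8 to 167 ± 1.43 CPM (-0.39, adjusted p = 0.0421), and AKT1 was at 233 ± 17.5 and 197 ± 1.54 CPM (-0.25, adjusted p = 0.0694). The other 3 lower genes, named after their values were seen, were PIK3CD (-0.39), RPTOR (-0.46) and MLST8 (-0.45), the last 2 of which encode subunits of the mTOR complexes. RIT1 and MAP2K5 kept their direction and passed the adjusted p under all 17 alternatives computed, whereas every other gene named by the rule that passed lost it in some of them. AKT2 did not pass in 10 alternatives, SHC1 in 9, PTPN11, ETS1 and PIK3R3 in 7, RPS6KA2 in 6, DUSP4 and RASA3 in 5, RASGRP3 in 4, and DUSP5 and IER3 in 3. For RASGRP3, RPS6KA2 and PIK3R3, all of low counts, some of the 17 alternatives gave no adjusted p. They passed in 10, 9 and 8 alternatives. Such counts were not made for the genes named after their values were seen.

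**Figure D4:**
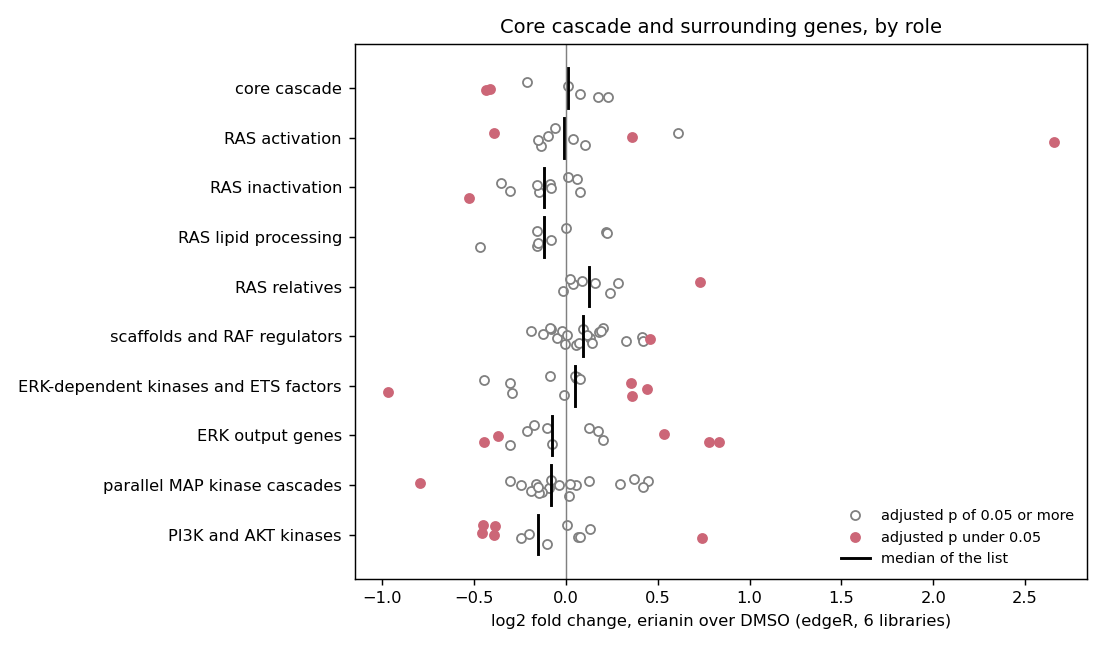
Log2 fold change of erianin over DMSO from edgeR (horizontal axis) for every tested gene of the core cascade and of the 9 surrounding lists (rows), with filled red points for an adjusted p below 0.05 and black lines for list medians. The 2 filled points of the core cascade, MAP2K2 and MAPK3, lie at -0.44 and -0.41, and the medians of all lists lie between -0.15 and 0.12.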

How the data were processed

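Total RNA from CAL62 cells, extracted with TRIzol, was sequenced as 6 libraries (3 DMSO, 3 erianin) on the BGISEQ-500 platform, although the labels describe Illumina library protocols. The authors deposited raw read counts per Ensembl gene and TPM values. The submitters' processing notes name fastp 0.23.2, STAR 2.7.10, featureCounts 2.0.1, StringTie 2.2.1 and GRCh38. The annotation and the strand setting are not given in the sources used here. For 9773 genes the ratio of count to deposited TPM fitted 1 length per gene, with deviations of at most 0.00393%. TPM columns summed to between 59.1% (DMSO replicate 3) and 78.3% of the nominal total, so a TPM fold change carries a shift of all genes.

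Of 65807 rows, 26480 had no identifier, held at most 0.00515% of the counts and were left out. Counts on named genes ranged from 25776301 to 34107727 per library, and the 7 cascade genes had between 677 and 15137 counts each. Fold changes were fitted with edgeR 4.0.16 (TMM factors, filterByExpr, glmQLFit and glmQLFTest, two-sided) in R 4.3.3 on all genes and all 6 libraries, with Benjamini-Hochberg adjustment over all tested genes. A call required an adjusted p below 0.05 and an absolute log2 fold change above 0.5. Standard errors are the log2 fold change divided by the root of its F statistic. CPM are scaled by the TMM-adjusted library size. Ratios of TPM were compared by exact permutation in SciPy 1.17.1. Alternatives were DESeq2 1.42.0, RLE and upper-quartile factors, the test without a low-count filter or with a minimum of 10 counts per library, limma 3.58.1 on log2(TPM + 1) or log2(TPM + 0.1) for genes above a mean TPM of 1 or for all genes, a replicate block, a loess offset (span 0.5) on transcript GC content, and each library left out. The GC offset without DMSO replicate 3 and the counts per kilobase were added after seeing the data. The fitting steps were tested on simulated data. The simulation held no outlying library and no GC trend, and its changes were larger than those of the cascade genes. It therefore does not show how the fits behave under those conditions.

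The cascade genes and the surrounding lists were chosen with earlier results of these data known. Of each list, the named genes are the 2 of highest mean CPM and up to 4 called genes, and exceptions are stated. Of 118 list genes, 117 matched a row, and PIK3R2 was not analysed here. Positions, exon overlaps and GC content came from GENCODE release 29, and upstream sequences from RefSeq (GRCh38.p14), with all 7 genes matched in both.

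Libraries of the same replicate number were not treated as pairs, since their deviations from the group means had correlations of 0.00138, 0.0253 and -0.0329.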

Additional observations from a re-analysis of the deposited data

How the results depend on the processing

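MAP2K2 and MAPK3 were lower under every alternative computed. ARAF was also lower in each, at -0.014 in the TPM fits. MAP2K2 passed the adjusted p in 9 alternatives and did not in 9, and MAPK3 passed in 8 and did not in 10. Limma on TPM gave -0.23 for MAP2K2 with either pseudocount and without the filter (adjusted p 0.253 to 0.306) and -0.21 for MAPK3 (adjusted p 0.0900 to 0.0990); on log2(TPM + 1) the median of all genes was 0.18, and relative to it MAP2K2 was -0.41 and MAPK3 -0.38. Neither passed with the replicate block, at -0.43 and -0.41 (adjusted p 0.0628 and 0.0631), which reduced the calls over all genes from 688 higher and 431 lower to 384 and 281. MAPK3 did not pass with the GC offset (-0.44) or with the offset and the replicate block (-0.42). Leaving out each library gave -0.53 to -0.39 for MAP2K2, -0.49 to -0.35 for MAPK3, -0.25 to -0.16 for ARAF, -0.0094 to 0.37 for HRAS, -0.0020 to 0.18 for NRAS, -0.12 to 0.29 for BRAF and -0.019 to 0.29 for MAP2K1. The highest adjusted p without a library other than DMSO replicate 3 was 0.107 for MAP2K2 and 0.113 for MAPK3, and without an erianin library the biological coefficient of variation was 0.158 to 0.159.

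NRAS was 0.28 with limma on log2(TPM + 1) (adjusted p = 0.0496), or 0.10 relative to the median of all genes in that fit. It was -0.10 with the GC offset, also with the replicate block, and -0.13 with the offset and without DMSO replicate 3. BRAF was -0.0069 without the low-count filter, -0.13 with the GC offset and -0.11 with the offset and the replicate block. With the offset and without DMSO replicate 3, HRAS was 0.13 (adjusted p = 0.0336) and MAP2K1 -0.055. The erianin minus DMSO difference in the log2 ratio of HRAS to NRAS lay between -0.18 and 0.42 when a library was left out. The causes of these changes were not tested. Of the cascade genes, 2 counted as lower with no fold threshold, where 7.69% of all tested genes did. At both thresholds 0 to 1 of the cascade genes did with a library left out, against 0 over all libraries. Over all genes 126 to 797 were called lower with a library left out, against 431 over all libraries.

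Of the surrounding genes, 6 higher and 3 lower became 11 and 10 with no fold threshold. Over all tested genes 5.37% higher and 3.36% lower became 7.22% and 7.69%. Limma gave 12 and 1 on log2(TPM + 1), 13 and 1 with the smaller pseudocount, and 11 and 1 without the filter. Over all genes these fits, in the same order, called 1098, 1207 and 1057 higher and 94, 110 and 88 lower. The main fit called 688 higher and 431 lower, so the counts moved over all genes as well. Leaving out a library gave 1 to 12 higher and 1 to 4 lower. Over all genes it gave 172 to 1485 higher and 126 to 797 lower. On the 3 TPM fits, in the order just given, the sign turned for NF1 (0.13, 0.15, 0.13), ICMT (0.12, 0.12, 0.12), YWHAZ (0.20, 0.20, 0.20), PEA15 (0.20, 0.20, 0.20), FOSL1 (0.0014, 0.0014, 0.0014) and MAP3K11 (0.064, 0.066, 0.064). The median over all genes in these fits was 0.18, 0.20 and 0.12, so these values carry a shift of all genes. With upper-quartile factors YWHAZ was 0.028 and PEA15 0.041. Without DMSO replicate 3 NF1 was 0.19, RRAS -0.094, YWHAZ 0.17, PEA15 0.14 and MAP2K3 -0.024. PEA15 was 0.0032 with the replicate block and 0.0052 without erianin replicate 3, and -0.092 to 0.14 over all libraries left out. RALB was -0.066 with the GC offset and -0.065 with the offset and the replicate block. LYPLA1 was -0.0037 with DESeq2 and with RLE factors, -0.018 without the low-count filter, -0.18 with the GC offset, -0.19 with the offset and the replicate block, and -0.086 to 0.10 without a library.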
